A study of Mus musculus with 8 samples.

Results

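The genes Slc4a1, Alas2, Ahsp, Klf1, Gata1 and Rhag, a set of 6 names that mark red cells and their precursors, were looked up by name in a table of 24545 rows from whole mouse liver. A row was found for 5 of the 6, and Ahsp was not analysed here. Klf1 had a second row, and the row with the higher total was used. Slc4a1, Alas2 and Rhag were taken as mature red cell genes, and Klf1 and Gata1 as precursor factors. Tests covered the 3 of the 5 genes that reached the expression filter, which were Slc4a1, Alas2 and Klf1, among 11463 features tested.

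The livers came from male C57Bl/6J mice in 4 groups with 2 libraries each. The groups were ApoE-Cyp7a1 transgenic mice given LPS, wild-type mice given LPS, untreated transgenic mice and untreated wild-type mice. LPS, the endotoxin of Gram-negative bacteria, was injected daily at 1.5 mg/kg for 7 days as a model of chronic inflammation. The transgene was described as liver specific and expresses Cyp7a1, the enzyme that sets the pace of bile acid production. The species of the transgene, the age of the mice, any sham injection of the untreated mice, any perfusion of the livers and any pooling of animals were not stated. Values are in FPKM, which divides the fragments of a gene by its transcript length and by the size of the library, so levels of different genes can be compared.

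Red cells arise in the bone marrow and, in mice under inflammatory or anaemic stress, also in the spleen and at times the liver, which is the main site in the fetus. The DNA-binding factor GATA1 starts the erythroid program together with TAL1 and LMO2, and KLF1 then drives globin, heme and membrane genes. Precursors divide, fill with hemoglobin and lose their nucleus, and the reticulocytes that enter the blood still carry RNA for globins and for ALAS2.

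Cyp7a1, the gene carried by the transgene, was at 73.5 and 70.2 FPKM in transgenic LPS livers and 64.7 and 78.5 FPKM in untreated transgenic livers, against 19.9 and 27.9 FPKM in wild-type LPS livers and 24.9 and 49.1 FPKM in untreated wild-type livers. All 4 transgenic libraries were above all 4 wild-type libraries. The FPKM values summed to 406668 to 469644 over all rows in the LPS libraries and to 500765 to 580051 in the untreated libraries. Fragment counts were not used, so the depth behind each value is unknown. With LPS, the summed FPKM of 9 macrophage markers was 1069 to 1244, against 81.1 to 154 untreated, and that of 9 hepatocyte markers was 11553 to 15331, against 14128 to 22778 untreated. The albumin gene Alb, also a hepatocyte marker, was listed at 0 in every library. In whole liver, fewer cells of a type and less RNA per cell cannot be told apart, and nor can more cells and more RNA per cell.

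The start regions of 4 of the 6 names were found in a RefSeq promoter table of build GRCm38.p6, each as 250 bases before to 50 bases after the annotated start. They are shown because GATA1 and KLF1 are themselves among the genes, and they bind short GATA and CACC motifs. Capitals mark every match on either strand to a GATA motif (the letters AGATAA in one form, with AGATAG as the next, then TGATAA and lastly TGATAG) or to a CACC motif (CCNCACCC). The windows are chrX:150547167-150547466 on the plus strand for Alas2, chr17:40810899-40811198 on the plus strand for Rhag, chr8:84901732-84902031 on the plus strand for Klf1 and chrX:7967861-7968160 on the minus strand for Gata1, and each is printed 5′ to 3′ along its gene.
Alas2: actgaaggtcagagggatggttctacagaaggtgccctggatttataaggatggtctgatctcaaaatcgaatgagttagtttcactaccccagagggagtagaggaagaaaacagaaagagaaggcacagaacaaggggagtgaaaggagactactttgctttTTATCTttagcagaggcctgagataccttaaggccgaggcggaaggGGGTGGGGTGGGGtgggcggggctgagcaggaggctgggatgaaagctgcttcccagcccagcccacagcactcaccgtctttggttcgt
Rhag: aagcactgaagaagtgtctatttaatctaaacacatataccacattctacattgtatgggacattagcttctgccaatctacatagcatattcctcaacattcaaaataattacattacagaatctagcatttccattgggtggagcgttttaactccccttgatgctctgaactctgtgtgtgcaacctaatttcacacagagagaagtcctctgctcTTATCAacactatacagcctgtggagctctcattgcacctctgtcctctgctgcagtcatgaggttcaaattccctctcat
Klf1: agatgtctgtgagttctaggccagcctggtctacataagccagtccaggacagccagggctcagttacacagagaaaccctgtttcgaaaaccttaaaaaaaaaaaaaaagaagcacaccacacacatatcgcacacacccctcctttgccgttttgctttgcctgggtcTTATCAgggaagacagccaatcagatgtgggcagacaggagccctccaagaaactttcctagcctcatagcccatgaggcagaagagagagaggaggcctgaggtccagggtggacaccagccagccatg
Gata1: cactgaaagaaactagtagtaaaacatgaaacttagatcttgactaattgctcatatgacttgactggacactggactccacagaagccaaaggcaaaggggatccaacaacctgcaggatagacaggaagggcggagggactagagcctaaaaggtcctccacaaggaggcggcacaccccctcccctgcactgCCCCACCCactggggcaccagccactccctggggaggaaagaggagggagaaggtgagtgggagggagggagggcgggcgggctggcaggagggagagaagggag
The Alas2 window had a GATA motif starting 86 bases before the start site (position -86) and 2 overlapping CACC motifs at -40 and -35. Rhag had a GATA motif at -31, Klf1 a GATA motif at -80, and Gata1 a CACC motif at -55. Of 32851 windows of this length in the table, 29.8% held the GATA motif, 16.6% the CACC motif and 3.68% both. A match of letters is a description and not evidence of binding, and no window held both motifs apart from that of Alas2 among the 4 shown.

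With LPS the mean of the red cell membrane gene Slc4a1 was 71.1-fold its untreated mean in transgenic mice and 60.1-fold in wild type. Its untreated values were near the floor, so the size of these folds is uncertain. The globins were higher in both genotypes, and the lowly expressed Rhag and Gata1 were higher in every LPS library. The heme enzyme Alas2 changed far less, and Klf1 passed the test in neither genotype. The mature genes and the precursor factors did not divide into a changed and an unchanged group. Values follow by role, first for the mature red cell genes and then for the factors.

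Slc4a1 encodes band 3, the chloride-bicarbonate exchanger that anchors the red cell skeleton to the membrane. The gene lies on chromosome 11 from 102348824 to 102366203 on the minus strand (GENCODE annotation, GRCm38). It was at 6.24 and 7.03 FPKM in transgenic LPS livers and 8.86 and 4.65 FPKM in wild-type LPS livers, against 0.0677 and 0.119 FPKM in untreated transgenic livers and 0.156 and 0.0686 FPKM in untreated wild-type livers. Every LPS library was far above every untreated one, and within LPS the transgenic values lay inside the wild-type range. The means were 6.64 ± 0.556 FPKM with LPS and 0.0933 ± 0.0361 FPKM untreated in transgenic mice (SD, n = 2 each), a 71.1-fold difference. In wild type they were 6.75 ± 2.98 FPKM with LPS and 0.112 ± 0.0620 FPKM untreated (SD, n = 2 each), a 60.1-fold difference. On the log2(FPKM + 1) scale, which understates the change of a gene near 0, Slc4a1 rose by 2.80 in transgenic mice (SE 0.24, limma adjusted p = 0.000387) and by 2.75 in wild type (SE 0.24, limma adjusted p = 0.000276). With a pseudocount of 0.1 in place of 1 the changes were 5.13 in transgenic mice and 4.97 in wild type. Slc4a1 reached the expression filter through its LPS libraries alone, so its presence among the tested genes is tied to its rise.

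Rhag encodes the Rh-associated glycoprotein, a membrane channel for ammonia and carbon dioxide that carries the Rh complex. The gene lies on chromosome 17 from 40811126 to 40840754 on the plus strand. It was at 0.428 and 0.661 FPKM in transgenic LPS livers and 0.592 and 0.248 FPKM in wild-type LPS livers, against 0.0375 and 0 FPKM in untreated transgenic livers and 0 in both untreated wild-type livers. It was thus detected in all 4 LPS libraries and listed at 0 in 3 of the 4 untreated ones, and no fold is given. The LPS minus untreated difference of the mean log2(FPKM + 1) was 0.55, with an exact 2-sided permutation p of 0.0286 over 4 LPS and 4 untreated libraries, the smallest p that this design can give. With a pseudocount of 0.1 the difference was 2.36. Rhag stayed under the filter in every library, and 17.1% of the 5831 features under the filter likewise had all LPS libraries above all untreated ones.

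Alas2 encodes the erythroid form of 5-aminolevulinate synthase, which starts heme synthesis. The gene lies on chromosome X from 150547375 to 150570638 on the plus strand. It was at 34.4 and 48.9 FPKM in transgenic LPS livers and 80.2 and 47.4 FPKM in wild-type LPS livers, against 35.0 and 32.2 FPKM in untreated transgenic livers and 32.1 and 33.3 FPKM in untreated wild-type livers. The untreated libraries lay close together, both wild-type LPS libraries were above them, and the lower transgenic LPS library fell inside the untreated range. The mean was 41.7 ± 10.3 FPKM with LPS and 33.6 ± 2.01 FPKM untreated in transgenic mice (SD, n = 2 each), and 63.8 ± 23.2 FPKM with LPS and 32.7 ± 0.822 FPKM untreated in wild type (SD, n = 2 each). The log2 change was 0.90 in wild type (SE 0.27, limma adjusted p = 0.0487), which passed, and 0.28 in transgenic mice (SE 0.27, limma adjusted p = 0.466), which did not. Averaged over both genotypes it was 0.59 (SE 0.19, limma adjusted p = 0.0423).

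The call for Alas2 stood at the threshold. In wild type it was lost under 9 of 16 alternative settings, with log2 changes of 0.52 to 1.27 and adjusted p of 0.00913 to 0.296 over all of them. Over both genotypes it was lost under 8 of 15. Without the wild-type LPS replicate 1 the log2 change was 0.52 (limma adjusted p = 0.296) in wild type and 0.40 (limma adjusted p = 0.132) over both genotypes. Alas2 overlaps Apex2, a DNA repair endonuclease gene on the opposite strand, and a microRNA gene. The libraries were made with a stranded kit, but whether the counting used strand was not stated. Apex2 was at 3.55 to 10.2 FPKM in the LPS libraries, against 2.91 to 6.07 FPKM in the untreated ones. Apex2 was below Alas2 in each of the 8 libraries, and a part of Apex2 reads in the Alas2 values was not tested.

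Among the precursor factors, Gata1 encodes the zinc finger factor that commits cells to the red cell and platelet lineages. The gene lies on chromosome X from 7959260 to 7978071 on the minus strand, and the start of the window printed above falls inside this span. It was at 0.429 and 0.381 FPKM in transgenic LPS livers and 0.599 and 0.366 FPKM in wild-type LPS livers, against 0.0414 and 0.0371 FPKM in untreated transgenic livers and 0.0352 and 0 FPKM in untreated wild-type livers. All LPS libraries were above all untreated ones, and the transgenic means differed 10.3-fold. The LPS minus untreated difference of the mean log2(FPKM + 1) was 0.49, with an exact 2-sided permutation p of 0.0286 over 4 LPS and 4 untreated libraries, again the smallest possible. With a pseudocount of 0.1 it was 2.08. When the expression filter was dropped, Gata1 passed limma in transgenic mice (log2 change 0.43, adjusted p = 0.0129) and in wild type (0.54, adjusted p = 0.00538). Rhag passed there too, with 0.60 in transgenic mice (limma adjusted p = 0.0224) and 0.50 in wild type (limma adjusted p = 0.0421). Without the filter, 2151 of all 17294 features passed as higher in transgenic mice and 2262 in wild type.

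Klf1 encodes the CACC-binding factor of late precursors that switches on adult beta globin. The gene lies on chromosome 8 from 84901928 to 84905291 on the plus strand. It was at 2.06 and 2.87 FPKM in transgenic LPS livers and 4.16 and 4.27 FPKM in wild-type LPS livers, against 1.85 and 2.65 FPKM in untreated transgenic livers and 2.86 and 1.55 FPKM in untreated wild-type livers. The transgenic LPS values overlapped the untreated range, and both wild-type LPS values were above it. The log2 change was 0.09 in transgenic mice (SE 0.23, limma adjusted p = 0.799) and 0.73 in wild type (SE 0.23, limma adjusted p = 0.0606), so neither passed. Over both genotypes it was 0.41 (SE 0.16, limma adjusted p = 0.0846). In wild type it passed when values were rescaled to a common sum (1.07, limma adjusted p = 0.0185) and without the untreated wild-type replicate 1 (1.03, limma adjusted p = 0.0157). The second Klf1 row, which the rule set aside, was at 0.115 and 0 FPKM in transgenic LPS livers and 0.0230 and 0.0165 FPKM in wild-type LPS livers, against 1.71 and 0.150 FPKM in untreated transgenic livers and 0.462 and 0.0509 FPKM in untreated wild-type livers.

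**Figure D1:**
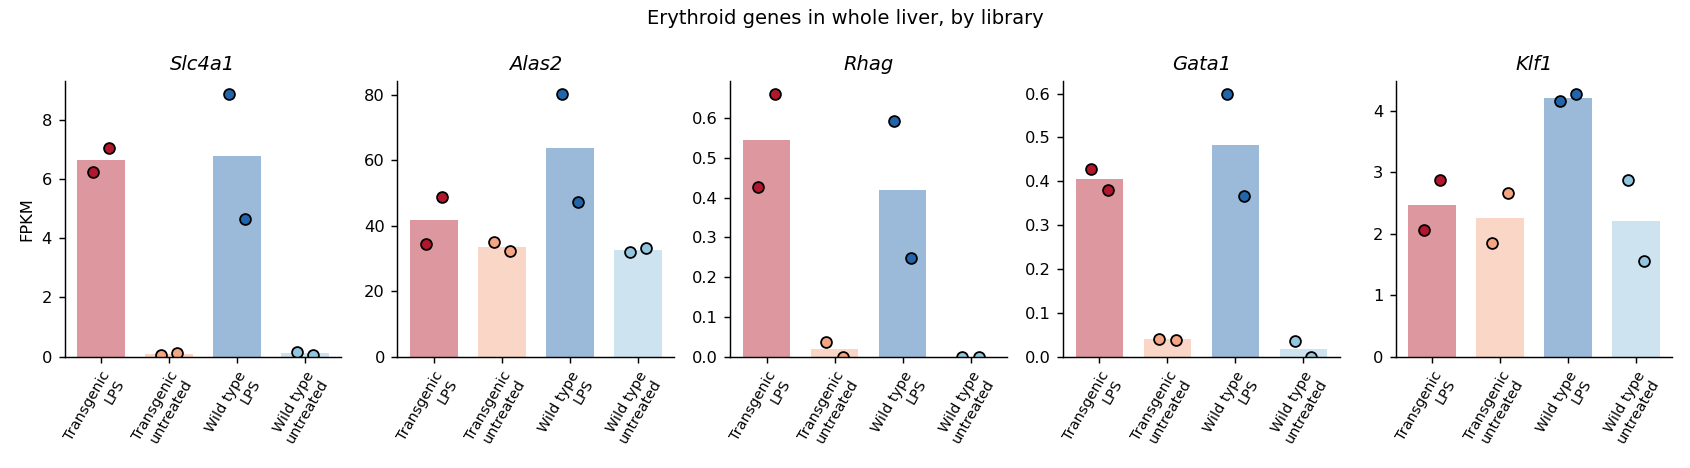
FPKM of the 5 erythroid genes, each with its own linear axis from 0; points are the 8 libraries, bars are group means and colours are groups. Slc4a1, Rhag and Gata1 had every LPS library above every untreated one, while Alas2 and Klf1 overlapped between LPS and untreated.

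Over the genes with a row, 3 of 5 (Slc4a1, Rhag and Gata1) had all 4 LPS libraries above all 4 untreated ones, where 19.4% of the 17294 features above 0 did. Of the 3 tested, 1 passed as higher in transgenic mice, where 16% of all features tested passed as higher. In wild type 2 of 3 passed as higher, where 16.2% of all features did. Averaged over both genotypes 2 of 3 passed as higher, where 20.6% of all features did. None passed as lower in any of these comparisons. A count over 3 genes, of which Slc4a1 reached the filter through LPS, carries little weight.

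**Figure D2:**
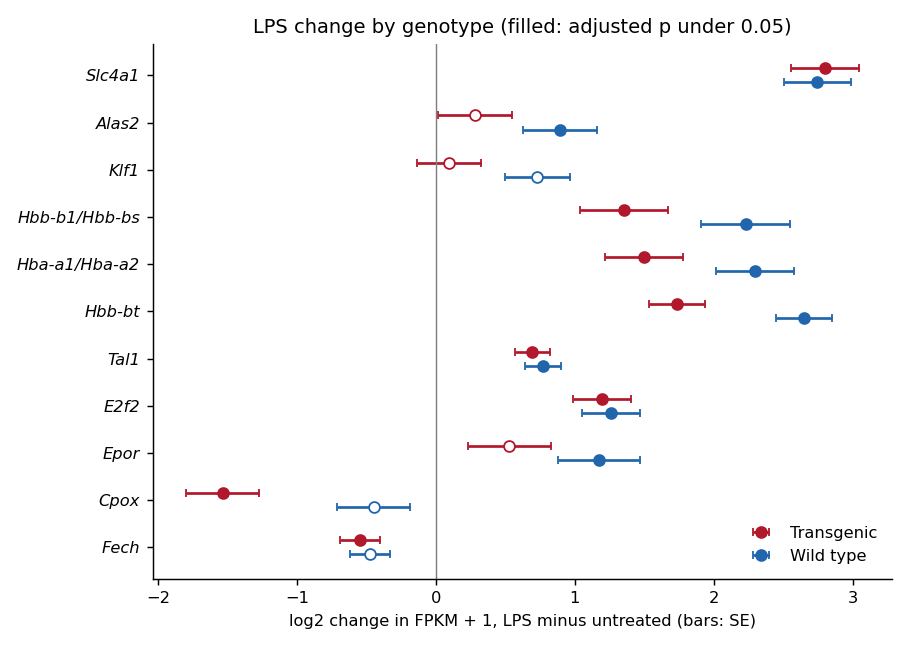
Change with LPS on the log2(FPKM + 1) scale, LPS minus untreated, for 11 erythroid and heme genes in transgenic and wild-type mice; points are limma estimates, bars are their SE, and filled points had an adjusted p under 0.05. Slc4a1 lay at 2.80 in transgenic mice and 2.75 in wild type, and Alas2 and Klf1 lay lower in both.

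The transgene made no called difference to any of the tested genes. In LPS-treated mice, transgenic minus wild type was 0.03 for Slc4a1 (SE 0.24, limma adjusted p = 0.969), -0.58 for Alas2 (SE 0.27, limma adjusted p = 0.427) and -0.60 for Klf1 (SE 0.23, limma adjusted p = 0.379). By limma 0 of 3 passed in this comparison, where 0% of all features did. Klf1 alone had an unadjusted p under 0.05 (limma unadjusted p = 0.0339), as did 12.2% of all features. Both transgenic LPS libraries had less Klf1 than both wild-type LPS libraries, as did 24.7% of all features above 0. In untreated mice 0 of 3 passed limma and 0 had an unadjusted p under 0.05, where 0.0611% of all features passed and 5.5% had such a p.

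The LPS change itself was compared between genotypes as an interaction, which subtracts the wild-type change from the transgenic one. It was 0.06 for Slc4a1 (SE 0.34, limma adjusted p = 0.962), -0.61 for Alas2 (SE 0.37, limma adjusted p = 0.595) and -0.64 for Klf1 (SE 0.33, limma adjusted p = 0.533). By limma 0 of the 3 passed and 0 had an unadjusted p under 0.05, where 0.00872% of all features passed and 10.4% had such a p. With 2 libraries in each group, the SE of 0.33 to 0.37 leaves room for differences of the size seen for Alas2 and Klf1, and a p above the threshold does not show that the genotypes responded alike.

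The order of levels was different with and without LPS. With LPS, Alas2 was highest in every library, followed by Slc4a1 at 4.65 to 8.86 FPKM, then Klf1 at 2.06 to 4.27 FPKM, and then Gata1 at 0.366 to 0.599 FPKM and Rhag at 0.248 to 0.661 FPKM. Gata1 and Rhag overlapped and could not be ordered. Untreated, Alas2 was again highest at 32.1 to 35.0 FPKM, Klf1 came next at 1.55 to 2.86 FPKM, Slc4a1 lay below it at 0.0677 to 0.156 FPKM, and Gata1 at 0 to 0.0414 FPKM and Rhag at 0 to 0.0375 FPKM again overlapped.

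Ratios within a library show the same unequal change without any scaling between libraries. The FPKM ratio of Slc4a1 to Klf1 was 1.09 to 3.03 with LPS, against 0.0366 to 0.0546 untreated. That of Alas2 to Slc4a1 was 5.51 to 10.2 with LPS, against 206 to 517 untreated. The ratio of Slc4a1 to Gata1 was 12.7 to 18.4 with LPS, against 1.64 to 4.44 in the 3 untreated libraries where Gata1 was above 0. None of these ranges overlapped between LPS and untreated. In the untreated libraries Slc4a1 was at 0.156 FPKM or less and Gata1 at 0.0414 FPKM or less. Both were near the floor, so the size of the untreated ratios is uncertain. The mean log2(FPKM + 1) of the 3 mature genes minus that of the 2 precursor factors was 1.77 and 1.92 in transgenic LPS livers and 1.92 and 1.38 in wild-type LPS livers, against 0.988 and 0.777 in untreated transgenic livers and 0.753 and 1.06 in untreated wild-type livers. This gap was 0.85 larger with LPS, and the LPS and untreated libraries did not overlap, but its growth rests mainly on Slc4a1. By gene, the change over both genotypes on this scale was 2.77 for Slc4a1, 0.59 for Alas2, 0.55 for Rhag, 0.49 for Gata1 and 0.41 for Klf1. Alas2 and Rhag thus lay close to the precursor factors, and the gap does not describe the mature genes as a set. Adding 1 shrinks the change of genes near 0. With a pseudocount of 0.1 it was 5.05 for Slc4a1, 0.60 for Alas2, 2.36 for Rhag, 2.08 for Gata1 and 0.55 for Klf1. On that scale Slc4a1, Rhag and Gata1 changed by more than Alas2 and Klf1, which cuts across the split into mature genes and precursor factors.

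The globins gave the largest amounts of red cell RNA. Hbb-b1 and Hbb-bs, names of adult beta globin with identical values in the table, were joined. The joined feature was at 1781 and 2003 FPKM in transgenic LPS livers and 3989.7 and 1949 FPKM in wild-type LPS livers. Untreated, it was at 764 and 713 FPKM in transgenic livers and 611 and 577 FPKM in wild-type livers. All LPS libraries were above all untreated ones, and the wild-type LPS replicate 1 stood highest. The log2 change was 1.35 in transgenic mice (SE 0.32, limma adjusted p = 0.0191) and 2.23 in wild type (SE 0.32, limma adjusted p = 0.00213). The alpha globins Hba-a1 and Hba-a2, also joined, rose by 1.50 in transgenic mice (SE 0.28, limma adjusted p = 0.00834) and by 2.30 in wild type (SE 0.28, limma adjusted p = 0.00106). Hbb-bt, the other adult beta globin, rose by 1.73 in transgenic mice (SE 0.20, limma adjusted p = 0.000972) and by 2.65 in wild type (SE 0.20, limma adjusted p = 0.000203). The genes of a cluster are near copies, so the split of reads between them is uncertain. The embryonic genes Hbb-bh1 and Hba-x were listed at 0 in all libraries, and Hbb-y was at 0.142 FPKM in the transgenic LPS replicate 2 and at 0 elsewhere.

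The globins did not keep step with the membrane or the heme gene. The FPKM ratio of Hbb-b1/Hbb-bs to Slc4a1 was 285 to 450 with LPS (median 352), against 3910 to 11274 untreated (median 7201). Its ratio to Alas2 was 40.9 to 51.7 with LPS, against 17.3 to 22.2 untreated. Its ratio to the alpha globins was 4.87 to 5.90 with LPS, against 5.41 to 6.22 untreated, and these ranges overlapped. Relative to beta globin RNA, then, Slc4a1 was higher with LPS and Alas2 was lower, while the ratio of beta to alpha globin overlapped between LPS and untreated.

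**Figure D3:**
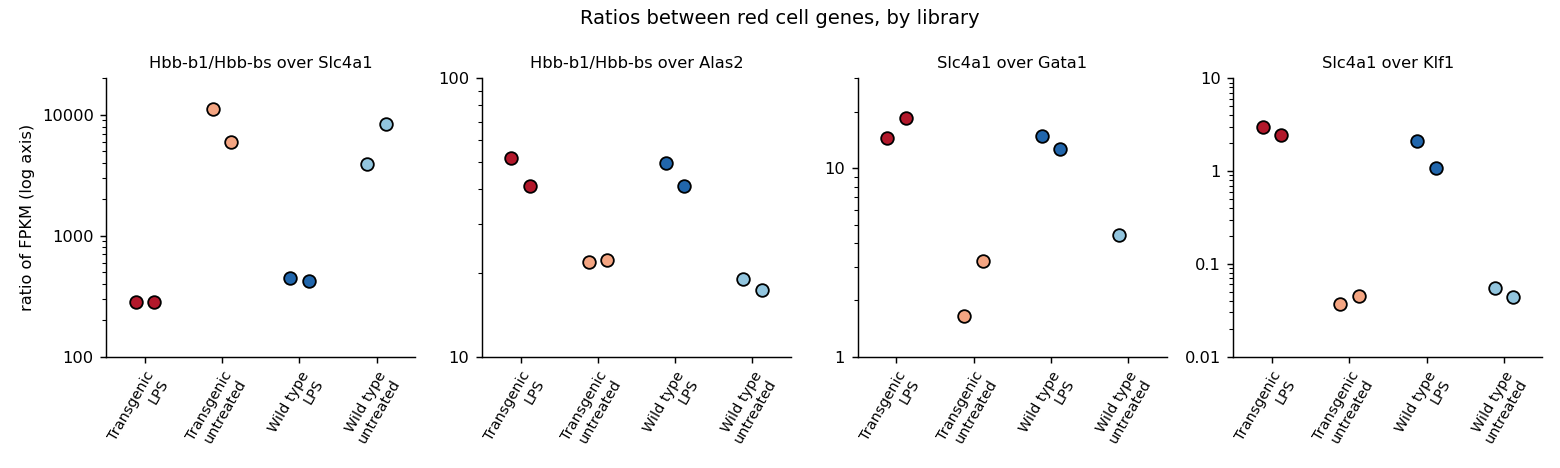
Ratios of FPKM within each library on log axes, for Hbb-b1/Hbb-bs over Slc4a1, Hbb-b1/Hbb-bs over Alas2, Slc4a1 over Gata1 and Slc4a1 over Klf1; points are libraries by group, and the untreated wild-type library with Gata1 at 0 is missing in the third panel. LPS and untreated libraries did not overlap in any panel, with Hbb-b1/Hbb-bs over Slc4a1 at 285 to 450 with LPS against 3910 to 11274 untreated. Untreated Slc4a1 and Gata1 were near the floor, so the size of their untreated ratios is uncertain.

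Other erythroid regulators were examined as a list of 13 genes, of which 10 were tested, 4 of them through their LPS libraries alone. Averaged over both genotypes 7 of 10 passed as higher and 0 as lower, where 20.6% of all features passed as higher, with a median log2 change of 0.75 beside -0.06 for all features tested. Lmo2, the bridging partner of GATA1 and TAL1, rose by 1.83 (SE 0.25, limma adjusted p = 0.00109), Lyl1, a relative of Tal1, by 1.55 (SE 0.15, limma adjusted p = 0.000155), and E2f2, a cell cycle factor of late red cell precursors, by 1.23 (SE 0.15, limma adjusted p = 0.000531). Tal1 was at 1.26 and 1.08 FPKM in transgenic LPS livers and 1.35 and 1.20 FPKM in wild-type LPS livers, against 0.396 and 0.285 FPKM in untreated transgenic livers and 0.343 and 0.319 FPKM in untreated wild-type livers. Epor, the erythropoietin receptor, rose by 0.85 (SE 0.21, limma adjusted p = 0.0158). Ldb1, the scaffold of the GATA1 complex, and Gata2, which precedes GATA1 in progenitors, also passed, at 0.77 for Ldb1 and 0.33 for Gata2. Kit, the stem cell factor receptor, at 0.31 (limma adjusted p = 0.0657), Nfe2, an activator of globin genes, at 0.67 (limma adjusted p = 0.0834) and Zfpm1, the cofactor FOG1, at -0.20 (limma adjusted p = 0.524) did not. The Nfe2 average joins unlike levels. In wild type Nfe2 was at 1.80 and 1.40 FPKM with LPS, against 0.174 and 0.172 FPKM untreated. In transgenic mice it was at 1.71 and 5.89 FPKM with LPS, against 3.09 and 2.46 FPKM untreated. By limma, the interaction passed for 0 of the 10 tested regulators. Myb, Gfi1b and Bcl11a stayed under 1 FPKM in all libraries. Lmo2, Lyl1 and Tal1 are also expressed in endothelium, and 7 of 8 liver endothelial markers passed as higher, with a summed level of 276 to 303 FPKM with LPS against 106 to 128 FPKM untreated. The part of endothelium in the regulators' rise was not tested.

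Red cell membrane and skeleton genes other than Slc4a1 and Rhag were mostly too low to test. Of 16, 12 had all LPS libraries above all untreated ones, where 19.4% of the 17294 features above 0 did. The filter was reached by 5, of which 1 did so through its LPS libraries alone. Over both genotypes 2 of the 5 passed as higher, where 20.6% of all features did, and 1 as lower, where 15.8% did. Aqp1, a water channel also found in endothelium, rose by 0.70 over both genotypes (SE 0.16, limma adjusted p = 0.0128), and Xk fell by 0.31 (SE 0.09, limma adjusted p = 0.0337). Ank1, the ankyrin that ties band 3 to the skeleton, was low, at 0.198 to 0.464 FPKM with LPS against 0.00840 to 0.0405 FPKM untreated.

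Genes of terminal maturation passed as higher in 8 of 14 tested and as lower in 0, where 20.6% of all features passed as higher, with a median of 0.58. Of the 14, 2 were tested through their LPS libraries alone. Car2, a carbonic anhydrase, rose by 1.41 (SE 0.19, limma adjusted p = 0.000892), Isg20, an exonuclease, by 1.38 (SE 0.14, limma adjusted p = 0.000213) and Tmcc2 by 1.31 (SE 0.20, limma adjusted p = 0.00197). Car1, the other red cell carbonic anhydrase, went the other way in transgenic mice, and is named here after its values were seen. It was at 0.814 and 2.50 FPKM in transgenic LPS livers and 12.9 and 8.53 FPKM in wild-type LPS livers, against 4.44 and 8.04 FPKM in untreated transgenic livers and 7.56 and 7.14 FPKM in untreated wild-type livers. It fell by 1.48 in transgenic mice (limma adjusted p = 0.0215), and the interaction of -1.94 did not pass (limma adjusted p = 0.410).

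Over both genotypes, genes of heme synthesis and erythroid iron import other than Alas2 mostly fell or changed little with LPS, apart from Alas1. Of 15 tested, 0 passed as higher and 7 as lower over both genotypes, where 15.8% of all features passed as lower. The median was -0.41. In transgenic mice alone 7 of 15 passed as lower (median -0.54) and in wild type alone 1 did, which was Uros (median -0.21). Of all 11463 features, 3034 passed in transgenic mice, 1834 of them as higher, and 2481 passed in wild type, 1861 of them as higher. Lower calls were thus also fewer in wild type over all features. The difference between genotypes passed for 0 of the 15 by limma. Over both genotypes Cpox, which makes protoporphyrinogen, fell by 0.99 (SE 0.19, limma adjusted p = 0.00497), Alad, the second enzyme of the pathway, by 0.77 (SE 0.23, limma adjusted p = 0.0338), Uros by 0.65 (SE 0.11, limma adjusted p = 0.00330) and Fech, which inserts the iron, by 0.51 (SE 0.10, limma adjusted p = 0.00694). Hepatocytes use the same enzymes, and 3 of 9 hepatocyte markers tested passed as lower, with a median of -0.49. All 3 of these hepatocyte calls were lost after rescaling to a common sum (median -0.23) and with quantile normalization (median -0.045). Alas1, the form of the first enzyme used outside red cells, was at 0.54 (limma adjusted p = 0.0736), close to the 0.59 of Alas2, and did not pass. When values were rescaled to a common sum, which moved the median of all tested features to 0.17, 2 of the 15 passed as lower (Cpox and Uros) and Alas1 passed as higher, so the lower calls rest in part on the scale.

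**Figure D4:**
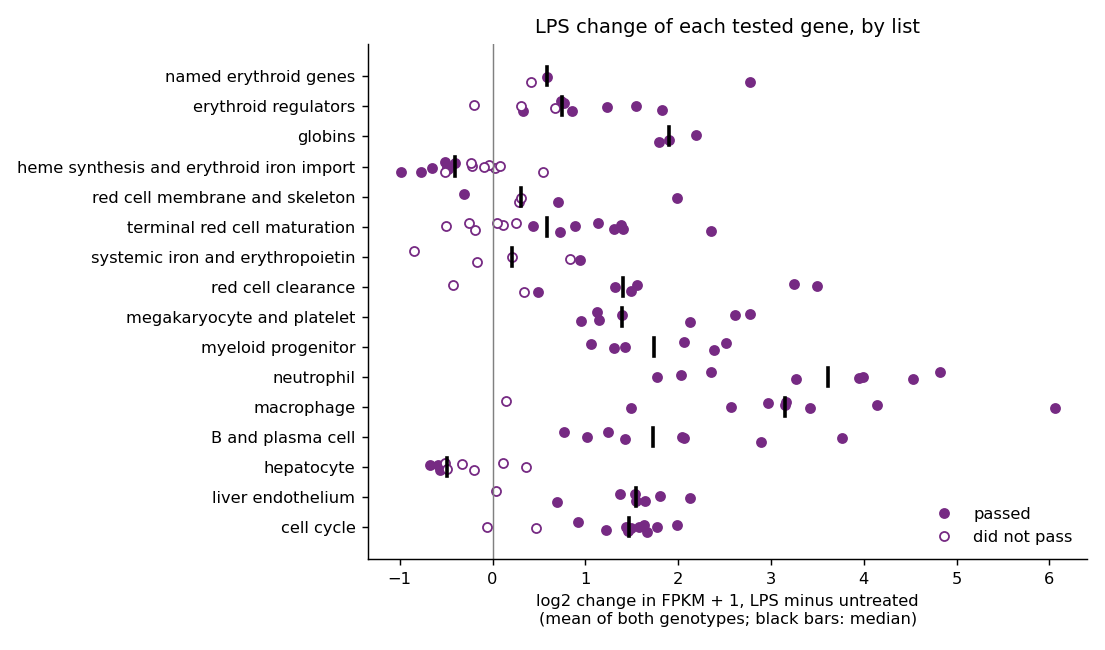
Change with LPS, averaged over both genotypes, for the tested genes of each list; the axis is the log2 change of FPKM + 1, points are genes and black bars are medians. The globins sat at a median of 1.90, the erythroid regulators at 0.75 and the heme synthesis genes at -0.41.

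Of 8 red cell clearance genes 6 passed as higher, where 20.6% of all features did, with a median of 1.40. Of the 8, 1 was tested through its LPS libraries alone, which was Spic, so its call is tied to its rise. Blvrb at -0.42 and Hp at 0.34 did not pass. Spic, the factor that sets up the iron-recycling macrophages of spleen and marrow, rose by 3.50 (SE 0.11, limma adjusted p = 1.26e-05). Hmox1, which opens the heme ring, rose by 3.25 (SE 0.29, limma adjusted p = 0.000116), Slc40a1, the iron exporter ferroportin, by 1.56 (SE 0.11, limma adjusted p = 3.68e-05) and Hpx, the plasma heme carrier, by 1.49 (SE 0.16, limma adjusted p = 0.000250). Of 5 tested genes of systemic iron control 1 passed, which was Trf, transferrin, with a rise of 0.94 (SE 0.17, limma adjusted p = 0.00448). Hamp, the iron hormone hepcidin, at 0.83, its relative Hamp2 at -0.84, Tfr2 at -0.17 and Bmp6 at 0.21 did not pass. Epo was listed at 0 in all libraries.

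Markers of other cells that share these genes or their tissue moved with LPS as well. GATA1 also acts in megakaryocytes, and of 7 tested megakaryocyte and platelet genes 7 passed as higher, where 20.6% of all features did, with Ppbp at 2.78 and Pf4 at 2.62. Their summed level was 65.3 to 85.1 FPKM with LPS against 10.4 to 17.0 FPKM untreated. Mast cells, basophils and eosinophils use GATA1 too, and their 10 marker genes were under 1 FPKM in every library, with a sum of 1.09 to 2.40 FPKM with LPS against 0.0711 to 0.489 FPKM untreated. Cell cycle genes passed as higher in 10 of 12, with Ccnb2 at 1.98 and Top2a at 1.67, and myeloid progenitor genes in 6 of 6, with Mpo at 2.52. Many of these genes were tested through their LPS libraries alone, namely 8 of the 12 cell cycle, 5 of the 6 myeloid progenitor and 3 of the 7 megakaryocyte genes, so the counts are a description and no support. The part of each of these in the levels of Gata1, Klf1 and the other regulators was not tested.

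The replicates within a group gave a further view, since the 2 wild-type LPS libraries differed in red cell RNA. Replicate 1 was above replicate 2 for 4 of the 5 named genes, with a median ratio of 1.69, for 3 of 3 globins, with a median of 1.88, and for 18 of 18 terminal maturation genes, with a median of 1.50. Over all tested features above 0 in both libraries, replicate 1 was above replicate 2 for 6003 of 11444, with a median of 1.01. It was above for 9 of the 13 regulators (median 1.13), 3 of the 14 cell cycle genes (median 0.936) and 9 of the 9 neutrophil markers (median 1.73). In the transgenic LPS pair the named genes had a median ratio of 0.717 and the globins 0.889, while the cell cycle genes had 1.40 and the neutrophil markers 1.59. Each ratio compares 2 libraries and carries no test.

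**Figure D5:**
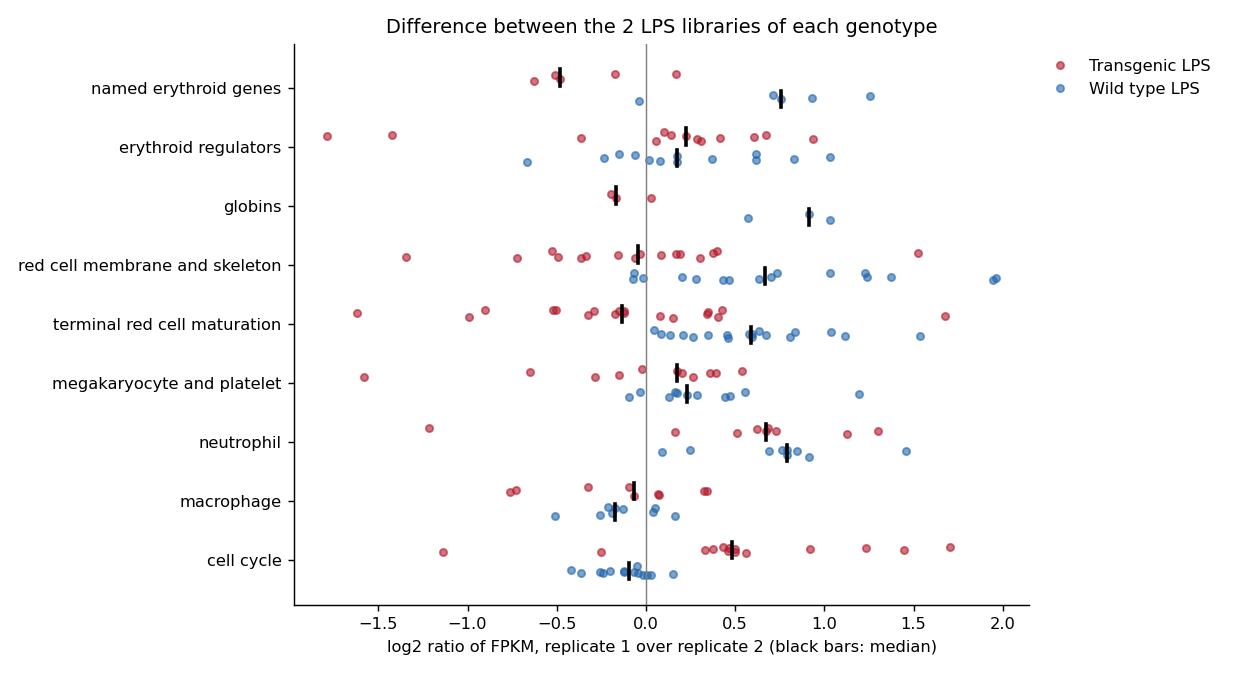
Log2 ratio of FPKM in replicate 1 over replicate 2 of the LPS libraries, by gene list and genotype; points are genes and black bars are medians. The wild-type medians of the named genes, globins and terminal maturation genes lay right of 0, at ratios of 1.69, 1.88 and 1.50, and the wild-type cell cycle median lay at a ratio of 0.936.

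Across the 8 libraries the named genes varied together to differing degrees, as a description that the shared LPS contrast shapes. Pearson's r of log2(FPKM + 1) was 0.986 between Slc4a1 and Gata1 and 0.961 between Slc4a1 and Rhag, but 0.753 between Slc4a1 and Alas2 and 0.587 between Slc4a1 and Klf1. The tested genes whose values were most like the mean of the mature genes were E2f2 (Pearson r 0.995, Spearman rho 0.929 over 8 libraries), Ankrd55, Tnfrsf11b, Synpo and Isg20, with r of 0.991 to 0.995. Those most like the mean of Klf1 and Gata1 were Wfdc1 and Ankrd16, each with r of 0.991, and Cstb at 0.978.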

How the data were processed

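Whole-liver RNA was sequenced in 8 libraries, 2 for each of 4 groups, which the authors' design text calls biological replicates. The deposited values are FPKM computed by the authors. The submitters' processing notes name TopHat2 2.1.0, Bowtie2 2.2.6, Cufflinks, Cuffdiff 2.2.1 and genome build mm10. The annotation, filters and strand setting of the counting are not given in the sources used.

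All 8 columns matched a sample and 0 were left over. Rows with identical values were joined into 1 feature, repeated names kept the row with the highest sum, and 27 names that had turned into dates were kept as unnamed features. This gave 17294 features above 0. Analysis was on log2(FPKM + 1). The filter asked for 1 FPKM or more in 2 or more of the 8 libraries and left 11463 features to test, with 5831 under it. A model with group means was fitted over the 8 libraries by limma 3.58.1 in R 4.3.3, with 4 residual degrees of freedom and moderation along the mean-variance trend. Tests were 2-sided, with Benjamini-Hochberg adjustment over all tested features and a threshold of 0.05. The fit was tested on simulated data. Rhag and Gata1, under the filter, got an exact permutation test over libraries.

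The 6 genes and the 16 gene lists with 177 entries were chosen with earlier results of these data known. Genes named from a list were up to 4 with the largest changes that passed, all erythroid regulators and all globins. Some genes that the rule names are not reported here. Alternatives were another pseudocount, other filters, rescaling to a common sum, quantile normalization, robust moderation, a replicate block, only the 2 groups compared, and leaving out each library. Depth is unknown because no counts were used, so no counting interval is given.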

Additional observations from a re-analysis of the deposited data

How the results depend on the processing

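Slc4a1 rose in both genotypes under all alternatives run. The count of named genes called with LPS in transgenic mice was 1, and 3 with no filter, where 2151 of 17294 features passed as higher. In wild type it was 2 of the 3 tested, 3 of 3 after rescaling to a common sum and 3 of 5 with no filter. Of 11463 features, 2558 passed as higher in wild type after rescaling, against 1861 before it. With no filter 2262 of 17294 did. It was 1 with a filter of 5 FPKM, with a replicate block and with only the 2 groups compared. Leaving out each replicate gave a log2 change of 0.52 to 1.27 for Alas2 in wild type. Over both genotypes the count was 2, and 1 with a replicate block, where the limma adjusted p of Alas2 was 0.050004. With no filter Slc4a1, Rhag and Gata1 passed over both genotypes, and Alas2 (limma adjusted p = 0.0661) and Klf1 (limma adjusted p = 0.135) did not. Leaving out each replicate gave a log2 change of 0.40 to 0.78 for Alas2 over both genotypes. The cause was not tested. The deviations of same-numbered libraries correlated at 0.0434 to 0.460 over 6 pairs of groups, above 0.1 in 4 of them and highest between the untreated groups. The labels name no shared litter or batch, so the numbers were not taken as pairs, and whether they mark one was not settled. With the block the limma adjusted p of Alas2 in wild type was 0.0571. The gap between mature and precursor genes grew by 0.85 with LPS, and by 1.36 with a pseudocount of 0.1. At either setting this growth rests mainly on Slc4a1.

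Some changes that never passed turned direction. With quantile normalization Klf1 was at -0.12 for LPS in transgenic mice and -0.042 for transgenic against wild type untreated. Leaving out each replicate gave -0.085 to 0.27 for Klf1 with LPS in transgenic mice. For transgenic against wild type with LPS it gave -0.37 to 0.43 for Slc4a1. For transgenic against wild type untreated it gave -0.081 to 0.033 for Slc4a1, -0.023 to 0.095 for Alas2 and -0.26 to 0.34 for Klf1. The Slc4a1 interaction was -0.35 to 0.46.

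Over all features, the LPS calls were 3034 in transgenic mice, 2481 in wild type and 4177 over both. A filter of 5 FPKM gave 1835 in transgenic mice, 1379 in wild type and 2698 over both, and leaving out each replicate gave 1233 to 3641 in transgenic mice, 1219 to 3453 in wild type and 2645 to 4785 over both. Transgenic against wild type with LPS had 0 calls and the interaction 1; without the transgenic LPS replicate 2 they had 423 and 276. The untreated comparison, at 7, gave 2 to 44 leaving out each replicate, 29 with only the 2 groups, 12 after rescaling and 0 with no filter. Among lists, the higher calls of membrane genes were 2, and 12 with no filter, 4 after rescaling, 1 at 5 FPKM and 1 to 4 leaving out each replicate. Those of regulators were 7, and 4 with quantile normalization and 2 at 5 FPKM. At 5 FPKM terminal maturation had 5 in place of 8 and the cell cycle 2 in place of 10. Shares over all features are not set beside these list counts, which only describe the settings. Rescaling moved the median of all tested features over both genotypes from -0.06 to 0.17. Over both genotypes the heme synthesis genes had 7 lower calls, 2 after rescaling and 5 with quantile normalization, and the hepatocyte markers 3, with 0 under either. Klf1 could not be tested at 5 FPKM, nor Slc4a1 in the untreated comparison with only those 2 groups, because they missed the filter there. Single calls were limited by 2 libraries in each group and by unknown depth.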
